A study of Caenorhabditis elegans with 15 samples.

Results

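The neuropeptide genes examined here are flp-1 to flp-22 and nlp-1 to nlp-23 of Caenorhabditis elegans, 45 of the 46934 genes in the deposited table. They were taken as the WormBase IDs WBGene00001444 to WBGene00001465 (22 flp genes) and WBGene00003739 to WBGene00003761 (23 nlp genes), named in that order. Genes within these ranges were not filtered by value, but the set was chosen with earlier results of these data known. RNA came from whole worms of 3 strains, all grown for 3 days at 20 °C on bacteria and egg plates. In strain KX155 the cap-binding proteins IFE-1 and IFE-3 carry mKate and GFP, respectively, placed by CRISPR on ife-1 (chromosome III) and ife-3 (chromosome V), and both tagged proteins are present in the same animals. From KX155, the RNA pulled down with mKate::IFE-1 on RFP trap beads (the IFE-1 pull-down), the RNA pulled down with GFP::IFE-3 on GFP trap beads (the IFE-3 pull-down) and total RNA of the unenriched homogenate were sequenced. Strain LP307 holds mKate::PH and strain LP306 holds GFP::PH, each inserted on chromosome II, and their pull-downs on the RFP and GFP trap served as tag controls (mKate control and GFP control). The labels used here do not give the promoter of either insertion. Each of the 5 groups had 3 libraries, called biological replicates.

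Neuropeptide genes encode precursor proteins that neurons cut and amidate into short signalling peptides. The peptides are stored in dense core vesicles and, once released, mostly bind G protein-coupled receptors on other cells. The flp genes encode FMRFamide-like peptides, which share an arginine-phenylalanine-amide end, and the nlp genes are a mixed class of other peptides. They modulate locomotion, feeding, egg laying, sleep and fat storage in the worm. Because these mRNAs are made mainly in neurons, they are somatic messages in a study of proteins known for their work in the germ line. Each one comes from few cells of a whole animal, and fewer cells of a type and less RNA per cell cannot be told apart in such samples.

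The 45 genes lie on all 6 chromosomes, with 19 (42.2%) on X, 8 on IV, 5 each on I and II and 4 each on III and V. Of the 19983 protein-coding genes in the RefSeq table of the build WBcel235, 2730 (13.7%) lie on X. Of the X-linked members, 10 were flp and 9 were nlp genes. The names of all 45 were found in that table, which calls each of them protein-coding. Marker genes could not be looked up under the IDs of the data, so neither the neuronal origin of these mRNAs nor the content of other cell types was checked.

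Levels are given as TPM, a length-normalised abundance that sums to the same total in each library, and as scaled TPM, which is TPM divided by a factor per library that brings the bulk of genes to the same level. TPM keeps no sequencing depth, so the depth is unknown and no counting interval can be given. In total RNA the neuropeptide mRNAs were scarce: the 45 genes together held 122, 123 and 177 TPM in replicates 1, 2 and 3. The median member stood at 2.32 TPM in total RNA, and the tested members had a median percentile of 39.8 among all genes tested within the strain. Only 2 members exceeded a mean of 10 TPM there, 10 reached 5 TPM, 23 lay between 1 and 5 TPM, and 12 lay under 1 TPM.

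The highest neuropeptide mRNAs in total RNA, on a per-length scale, were nlp-18 and flp-12. The nlp-18 gene (chromosome II, 11027972 to 11030397) stood at 15.4, 16.7 and 22.1 scaled TPM. The flp-12 gene (chromosome X, 4591281 to 4592404) stood at 14.8, 17.1 and 21.1. These 2 did not differ beyond their spread, and all of their total RNA libraries lay above those of the next gene. That gene was flp-10 (chromosome IV, 7868907 to 7870081), which encodes a ligand of the egg-laying inhibitory receptor EGL-6 and stood at 9.73, 9.62 and 10.5. It was followed by nlp-12, a cholecystokinin-like peptide gene of the stretch-sensing neuron DVA, at 6.66, 8.14 and 11.1. Then came flp-5 at 6.23, 7.51 and 8.77, and nlp-3, which promotes egg laying, at 4.71, 7.74 and 10.0. Next were nlp-20 at 6.52, 5.89 and 9.56 and flp-15 at 5.82, 6.36 and 8.51. From nlp-12 to flp-15 the libraries of neighbours in this order overlapped.

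At the low end, 7 genes did not reach 1 TPM in 3 of the 9 KX155 libraries and were not tested within the strain: flp-20, flp-22, nlp-2, nlp-5, nlp-19, nlp-22 and nlp-23. The flp-20 mRNA, of a peptide known from touch receptor neurons, stood at 0.388, 0.142 and 0.369 scaled TPM in total RNA. The nlp-22 mRNA, of a peptide of the RIA neurons that induces quiescence during molts, stood at 0.553 in replicate 1 of total RNA and was listed at 0 in replicates 2 and 3. No member was listed at 0 in every library, and 41 of 45 were above 0 in all 15.

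**Figure D1:**
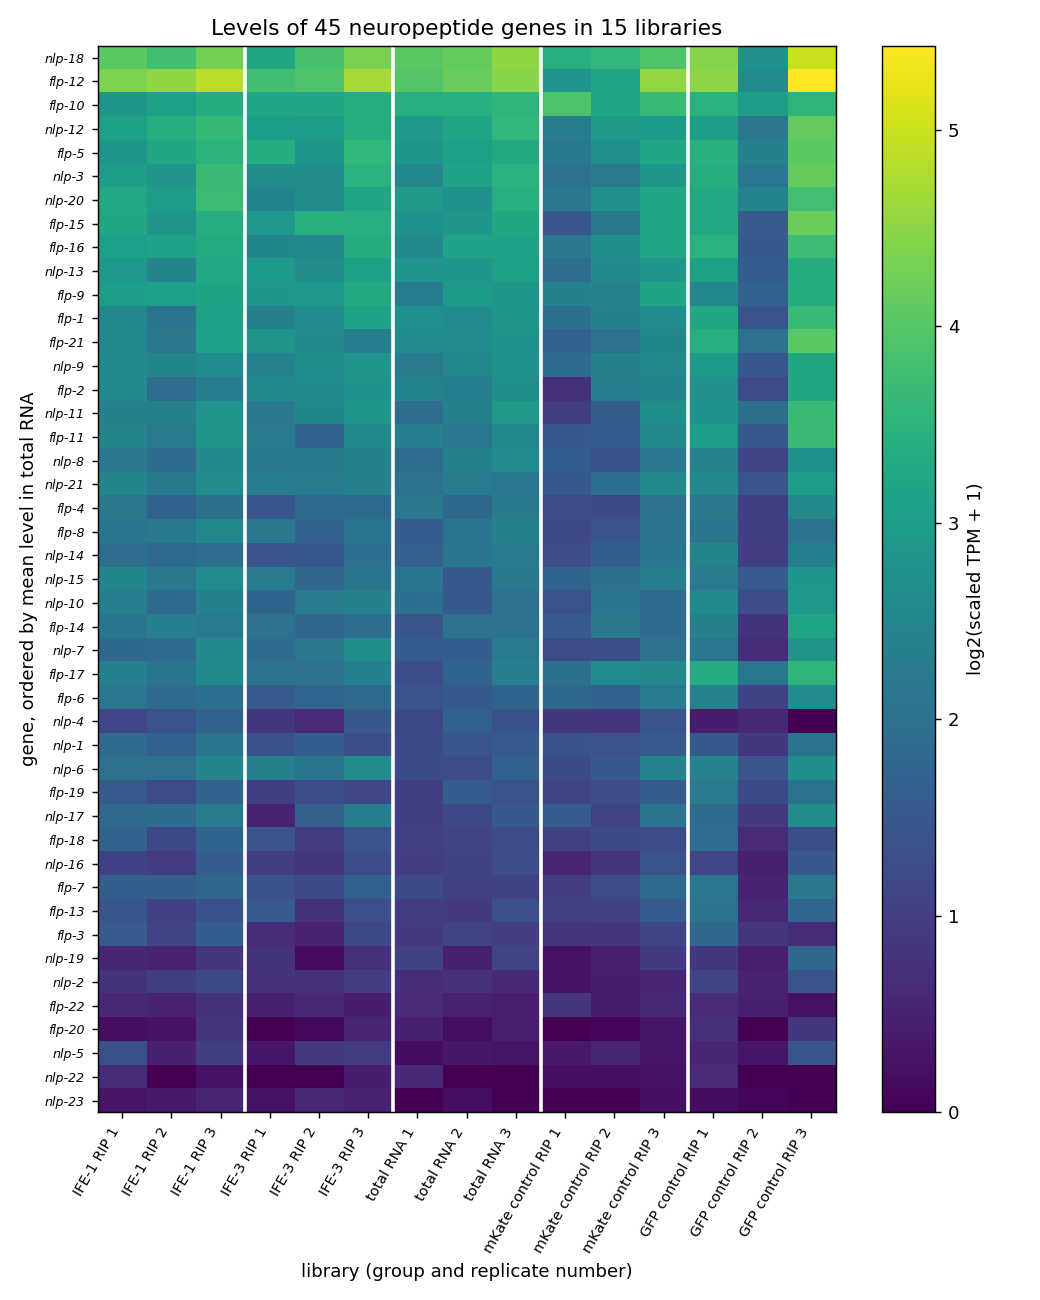
Levels of the 45 neuropeptide genes (rows, ordered by mean level in total RNA) in the 15 libraries (columns, by group; RIP in a label stands for a pull-down), as colour for log2(scaled TPM + 1). The order of the genes was much alike in all groups, while the third column of each group was brighter in most rows and the second column of the GFP control was darkest.

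The order of the 45 genes was similar in every group, tag controls included. Across the genes, Spearman's rho between group means ranged from 0.928, between total RNA and GFP control, to 0.973, between the IFE-1 pull-down and mKate control. It was 0.966 between the IFE-1 pull-down and total RNA, 0.958 between the IFE-3 pull-down and total RNA and 0.971 between the IFE pull-downs. Each value is a description over 45 genes measured in the same libraries, and genes are not independent replicates.

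The members were next summed within each library. Summed scaled TPM was 194, 176 and 253 in IFE-1 pull-down replicates 1, 2 and 3, a mean of 208 ± 40.4 (SD, n = 3). It was 155, 162 and 229 in the IFE-3 pull-down, a mean of 182 ± 40.7 (SD, n = 3). Total RNA gave 151, 173 and 216, a mean of 180 ± 33.2 (SD, n = 3). These 3 groups overlapped. In mKate control the sums were 101, 129 and 202, a mean of 144 ± 52.3 (SD, n = 3). At each replicate number the sum of the IFE-1 pull-down exceeded those of the IFE-3 pull-down, total RNA and mKate control. In GFP control they were 243, 78.9 and 363, a mean of 228 ± 143 (SD, n = 3). The GFP control thus held both the lowest and the highest sum of the series, which differed 4.60-fold.

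**Figure D2:**
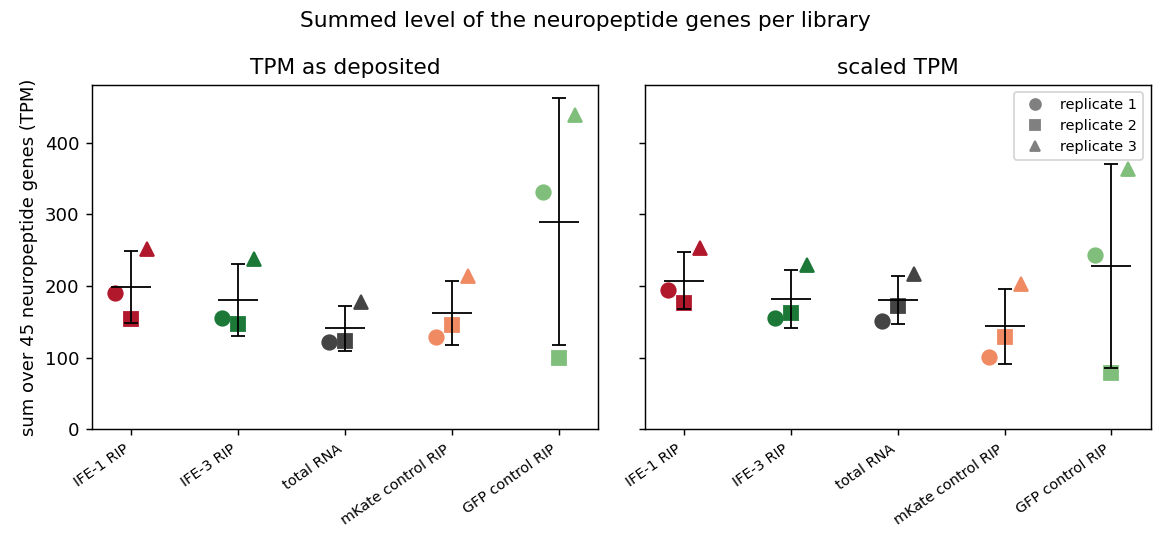
Summed level of the 45 neuropeptide genes in each library, as deposited TPM (left) and as scaled TPM (right), with circles, squares and triangles for replicates 1, 2 and 3 and a line with bars for the mean ± SD of a group. The triangle is the highest point of all 5 groups on both scales, and the GFP control spans the widest range, from 78.9 to 363 scaled TPM.

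The flp and the nlp genes moved together between libraries. The summed TPM of the flp genes was between 1.03 and 1.29 times that of the nlp genes in all 15 libraries, although the sum of both varied from 100.2 to 438 TPM.

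In all 5 groups the library numbered 3 held the highest sum. In the IFE-1 pull-down the third replicate was the highest for 38 of 45 members, in the IFE-3 pull-down for 33, in total RNA for 32, in mKate control for 39 and in GFP control for 35. Against the mean log2 value of the other replicates, 39, 37, 36, 39 and 37 of 40 members lay higher in replicate 3, in the same order of groups. These 40 members had at least 1 TPM in at least 3 of the 15 libraries. Of the 14308 genes that met this level, 43.5%, 42.1%, 41.2%, 46.4% and 48.0% lay higher. The median log2 difference of the members was 0.35 in the IFE-1 pull-down, 0.33 in the IFE-3 pull-down, 0.31 in total RNA, 0.63 in mKate control and 1.00 in GFP control, against medians of all genes from -0.04 to -0.01. The labels do not say whether a shared number marks a shared culture or day.

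The share of the library taken by its 10 highest genes was lowest in replicate 3 of both IFE pull-downs and both controls, but nearly flat in total RNA. It was 69.5%, 71.6% and 62.5% in IFE-1 pull-down replicates 1, 2 and 3 and 63.4%, 65.8% and 61.8% in those of the IFE-3 pull-down. In mKate control it was 75.1%, 73.9% and 71.1%, and in GFP control 71.6%, 68.1% and 57.8%. In total RNA it was 75.1%, 76.0% and 75.1%. Between replicates 1 and 2, the lower share went with the higher summed scaled TPM in the IFE-1 pull-down and mKate control. It went with the lower sum in the IFE-3 pull-down, GFP control and total RNA. The number of genes with at least 1 TPM was not highest in replicate 3 of the IFE-1 pull-down or of either control. The part of these in the members' levels was not tested.

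GFP control replicate 2 stood apart in the other direction. It was below both other libraries of its group in 40 of 45 members, and 30 of 40 members lay more than 2-fold from the mean log2 value of the others, as did 15.2% of all genes. For flp-12 the GFP control libraries stood at 21.5, 5.13 and 42 scaled TPM, and for flp-21, a gene for a ligand of the receptor NPR-1 that governs aggregation, at 9.59, 3.07 and 15.3. Every comparison with this control is therefore also given without it.

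To ask whether IFE-1 held neuropeptide mRNAs above their level in the lysate, the IFE-1 pull-down was compared with total RNA of the same strain. The labels name the pull-downs on each trap and the lysate as batches, so batch and group cannot be told apart here or for IFE-3. Most members lay slightly higher in the IFE-1 pull-down, and 2 of 38 tested members rose, nlp-6 and flp-7. None fell, and flp-10 showed the largest decrease, which did not pass the test. Of all 12099 genes tested, 4.12% were called higher and 6.07% lower, so that a share of 2 in 38 (5.26%) was near the background.

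The nlp-6 gene (chromosome X, 17662446 to 17665216) stood at 3.16, 3.11 and 4.57 scaled TPM in the IFE-1 pull-down, replicates 1, 2 and 3. In total RNA it stood at 1.33, 1.38 and 2.21. All IFE-1 pull-down libraries lay above all total RNA libraries, with a log2 fold change of 0.78 ± 0.19 SE (adjusted p by limma = 0.0332). All fold changes were computed on log2(scaled TPM + 1), and the added 1 makes the change of such low genes look smaller than it is. In mKate control the same gene stood at 1.32, 1.86 and 4.32, which overlapped both other groups.

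The flp-7 gene (chromosome X, 5885865 to 5886833) encodes peptides that couple neuronal serotonin to fat loss in the intestine. It stood at 2.13, 2.15 and 2.45 scaled TPM in the IFE-1 pull-down and at 1.30, 1.04 and 1.11 in total RNA. As deposited, its mean in total RNA was 0.899 TPM, below the 1 TPM used to filter genes. The groups did not overlap, and the log2 fold change was 0.57 ± 0.15 SE (adjusted p by limma = 0.0430). In mKate control flp-7 stood at 0.980, 1.40 and 2.70, so that a control library exceeded every IFE-1 pull-down library. The calls of both genes were lost when any single IFE-1 pull-down library, total RNA replicate 1 or total RNA replicate 2 was left out, and over 15 alternative fits that of flp-7 was lost in 10 and that of nlp-6 in 8.

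The other differences in this comparison did not pass the test. For nlp-17 the values were 2.68, 2.79 and 3.79 in the IFE-1 pull-down against 0.997, 1.27 and 1.89 in the lysate (log2 fold change 0.75 ± 0.37 SE, adjusted p by limma = 0.234). For flp-17, which encodes a second EGL-6 ligand, made in the BAG neurons, values were 4.05, 3.34 and 5.07 against 1.44, 2.34 and 3.99 (0.55 ± 0.24 SE, adjusted p by limma = 0.181). The flp-10 mRNA stood at 6.37, 7.59 and 9.28 in the IFE-1 pull-down, below all total RNA libraries (-0.33 ± 0.12 SE, adjusted p by limma = 0.130). For flp-2, a gene for an arousal peptide, values were 4.97, 2.88 and 3.94 against 4.34, 4.10 and 5.56 (-0.21 ± 0.17 SE, adjusted p by limma = 0.466). The nlp-18 mRNA stood at 15.8, 12.9 and 18.7 in the IFE-1 pull-down, which overlapped total RNA.

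Over the set, 29 of 38 tested members lay above 0 and 9 below, while 49.2% of all genes lay above. The members had a median log2 fold change of 0.20 and all genes one of -0.01, with a range over the members from -0.33 to 0.78. The medians of the 20 tested flp genes and the 18 tested nlp genes were 0.22 and 0.14. Groups did not overlap in 8 members that were higher and 1 that was lower, against 13.1% and 19.6% of all genes. Among the 8, flp-3 passed the filter on low values mainly through the IFE-1 pull-down, which favoured a higher value there. An unadjusted p under 0.05 was found for 8 higher members and 1 lower one, against 11.5% and 15.0% of all genes.

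The same question was asked of IFE-3. Only nlp-6 rose in the IFE-3 pull-down against total RNA, and no member fell. That is 1 of 38 tested members, while 5.58% of all genes were called higher and 5.63% lower. The nlp-6 mRNA stood at 4.15, 3.31 and 5.29 scaled TPM in the IFE-3 pull-down, above all total RNA libraries (log2 fold change 0.97 ± 0.19 SE, adjusted p by limma = 0.0173). In GFP control it stood at 4.28, 1.72 and 5.51, so that the control reached the scaled TPM of the pull-down in replicates 1 and 3. The call was lost without total RNA replicate 1, without total RNA replicate 2 and when the 15 libraries were fitted together.

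The members were spread evenly about 0 in this comparison, with 19 above and 19 below and a median log2 fold change of 0.01, against 0.03 for all genes. The range was from -0.42 for nlp-18 to 0.97 for nlp-6. The nlp-7 mRNA, of a peptide that delays egg laying, stood at 2.73, 3.47 and 5.54 in the IFE-3 pull-down and 1.97, 2.09 and 3.79 in total RNA (0.43 ± 0.28 SE, adjusted p by limma = 0.369). For flp-17 the IFE-3 pull-down libraries stood at 3.10, 3.11 and 4.05 (0.35 ± 0.24 SE, adjusted p by limma = 0.397). The flp-7 mRNA stood at 1.55, 1.31 and 2.20, all above total RNA (0.30 ± 0.15 SE, adjusted p by limma = 0.231). On the lower side nlp-18 stood at 8.47, 13.4 and 19 (-0.42 ± 0.26 SE, adjusted p by limma = 0.348). The nlp-4 mRNA stood at 0.819, 0.566 and 1.91 against 1.27, 2.20 and 1.56, and the mRNA of nlp-14, an orcokinin-like peptide gene that promotes stress-induced sleep, at 1.69, 1.81 and 2.95 against 2.16, 3.31 and 3.76. The adjusted p of limma was 0.399 and 0.264 for these 2 genes. Groups did not overlap in 3 members that were higher and 1 that was lower (flp-10), against 16.2% and 15.1% of all genes, and nlp-6 alone had an unadjusted p under 0.05, against 26.9% of all genes.

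**Figure D3:**
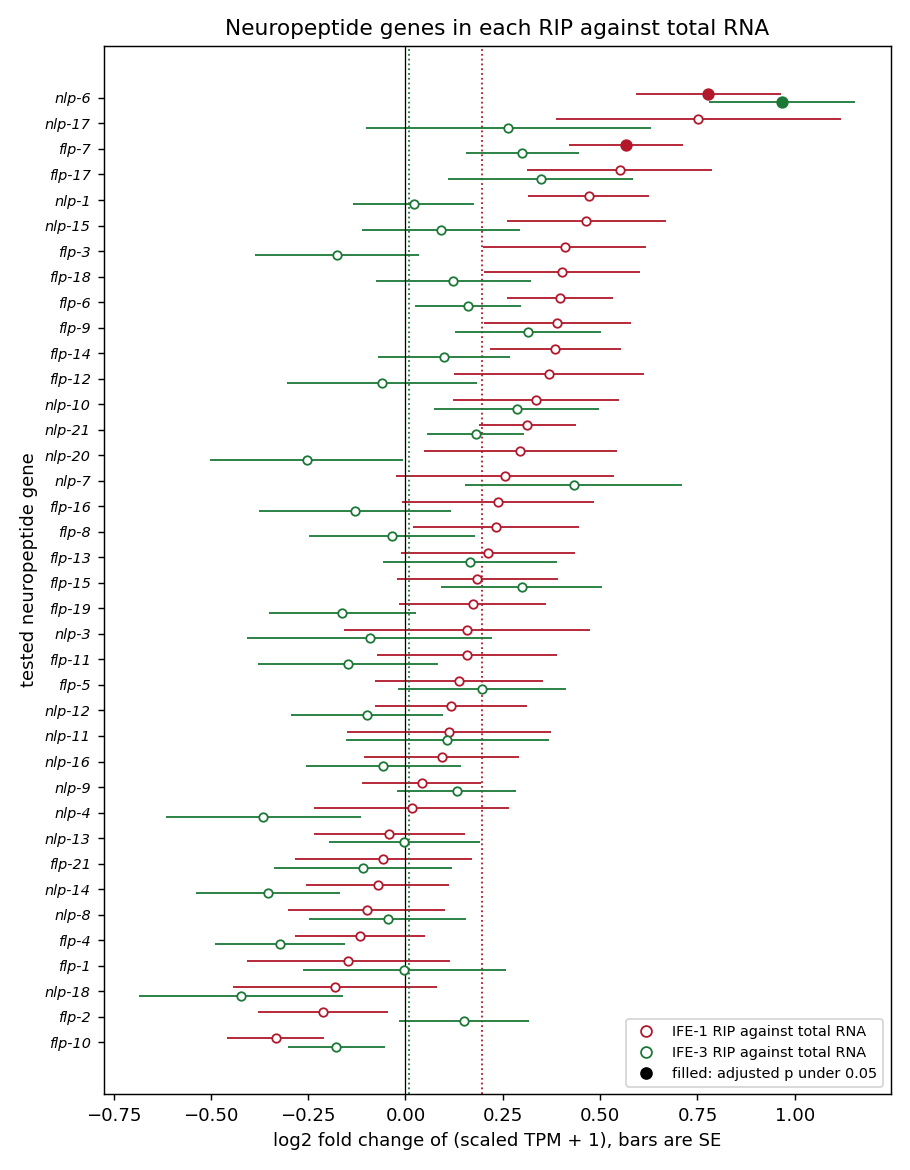
Log2 fold change of (scaled TPM + 1) of the 38 tested neuropeptide genes in the IFE-1 pull-down (red) and the IFE-3 pull-down (green) against total RNA, with SE bars, filled points for an adjusted p under 0.05 and dotted lines for the medians of the members. Only nlp-6 in both pull-downs and flp-7 in the IFE-1 pull-down are filled, and the dotted lines lie at 0.20 and 0.01. Both comparisons use the same total RNA libraries.

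TPM as deposited, without scaling, moved the median of all genes to 0.21 for the IFE-1 pull-down and 0.27 for the IFE-3 pull-down against total RNA. The medians of the members moved along with it, to 0.42 and 0.28. On that scale flp-6 and nlp-1 were called higher in the IFE-1 pull-down besides nlp-6 and flp-7, when 9.36% of all genes were called higher, and nlp-6 alone in the IFE-3 pull-down, when 21.5% were.

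The IFE-1 and IFE-3 pull-downs were then compared directly. They differ in paralog, tag, trap and batch, which cannot be told apart here. No member was called by the unpaired limma test among 38 tested, while 1.52% of all genes were called. An unadjusted p under 0.05 was found for 2 members, flp-3 and nlp-1, against 16.6% of all genes. Of these, flp-3 passed the filter on low values mainly through the IFE-1 pull-down, which favoured a higher value there. The nlp-1 mRNA, of a peptide that AWC olfactory neurons release during odour adaptation, stood at 2.75, 2.20 and 3.34 scaled TPM in the IFE-1 pull-down. In the IFE-3 pull-down it stood at 1.58, 2.07 and 1.46, below all IFE-1 pull-down libraries (log2 fold change 0.45 ± 0.16 SE, adjusted p by limma = 0.192). Total RNA gave 1.33, 1.73 and 1.95 and mKate control 1.57, 1.61 and 1.95, so that the IFE-1 pull-down exceeded all libraries of these 3 groups for nlp-1. In GFP control, however, nlp-1 ranged from 0.828 to 3.20, which overlapped the IFE-1 pull-down.

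The flp-3 mRNA stood at 1.96, 1.15 and 2.06 in the IFE-1 pull-down and at 0.620, 0.456 and 1.26 in the IFE-3 pull-down (0.58 ± 0.21 SE, adjusted p by limma = 0.207). For nlp-20 the values were 8.67, 7.03 and 12.2 against 4.43, 5.37 and 8.14 (0.55 ± 0.25 SE, adjusted p by limma = 0.316). In the opposite direction flp-2 stood at 4.77, 5.06 and 5.94 in the IFE-3 pull-down (-0.36 ± 0.17 SE, adjusted p by limma = 0.323). Over the set 28 of 38 members lay above 0, with a median of 0.21 against 0.02 for all genes. Groups did not overlap in 2 members, both higher in the IFE-1 pull-down (flp-14 and nlp-1), against 6.50% of all genes in this direction. When replicate numbers entered as a block, nlp-20 was called higher in the IFE-1 pull-down (0.55 ± 0.10 SE, adjusted p by limma = 0.0446), 1 of 38 members, when 0.339% of all genes were called higher.

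The tag controls give the relative level of the same mRNAs on beads with a tag not fused to an IFE protein. Neither TPM nor scaled TPM measures how much RNA the beads held, so equal values do not mean equal amounts of captured mRNA. The series' design text says that the submitters left these controls out because mRNAs were poorly represented in them. The controls share the trap and its batch with their pull-down but differ in strain. The IFE-1 pull-down lay above mKate control in 36 of 38 tested members, with a median log2 fold change of 0.44 against 0.01 for all genes, of which 50.7% lay above 0. No member was called by the unpaired limma test, while 0.474% of all genes were called. An unadjusted p under 0.05 was found for 6 members, all higher in the IFE-1 pull-down, against 14.9% of all genes in this direction. The 6 include flp-3, which here too passed the filter on low values mainly through the IFE-1 pull-down. The exceptions below 0 were flp-10 and flp-17. Groups did not overlap in flp-8, nlp-1 and nlp-12, against 16.7% of all genes higher without overlap.

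The largest difference was that of flp-12, at 19.6, 22 and 28 scaled TPM in the IFE-1 pull-down and 6.10, 8.14 and 22.3 in mKate control (log2 fold change 1.07 ± 0.44 SE, adjusted p by limma = 0.176). The nlp-3 mRNA stood at 7.30, 6.15 and 12 against 3.07, 3.68 and 6.29 (0.83 ± 0.30 SE, adjusted p by limma = 0.145). For nlp-12 the values were 7.49, 9.48 and 11.2 against 3.84, 6.68 and 6.75 (0.64 ± 0.23 SE, adjusted p by limma = 0.146). The flp-10 mRNA went the other way, at 14.0, 8.13 and 11.7 in mKate control (-0.47 ± 0.22 SE, adjusted p by limma = 0.222). When replicate numbers entered as a block, 5 of 38 members were called higher, flp-8, nlp-3, nlp-7, nlp-8 and nlp-12, with log2 fold changes from 0.52 to 0.83 and limma adjusted p from 0.0359 to 0.0471. In that fit 12.7% of all genes were called, and 8.55% were called higher. Without mKate control replicate 3, the highest of its group, 6 members were called higher among 37, as were 7.99% of all genes. With TPM as deposited the median of the members was 0.25 and that of all genes -0.20.

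Against GFP control, the IFE-3 pull-down lay lower in 27 of 37 tested members and higher in 10, with a median log2 fold change of -0.10 against 0.02 for all genes. No member was called by the unpaired limma test, none had an unadjusted p under 0.05 and none had groups that did not overlap. Of all genes, 0.0898%, 12.5% and 18.7% did. The largest difference was that of flp-17, at 9.16, 3.35 and 10.7 scaled TPM in the control (-0.88 ± 0.38 SE, adjusted p by limma = 0.404). The direction of the set rested on single control libraries. The median was -0.62 without GFP control replicate 2, 0.21 without replicate 3 and 0.03 without replicate 1, and in the first of these fits flp-17 was called lower in the IFE-3 pull-down, as were 0.317% of all genes. With TPM as deposited the median of the members was -0.42 and that of all genes -0.29, with 2 of 37 members above 0. When replicate numbers entered as a block, no member was called, as against 1.15% of all genes.

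**Figure D4:**
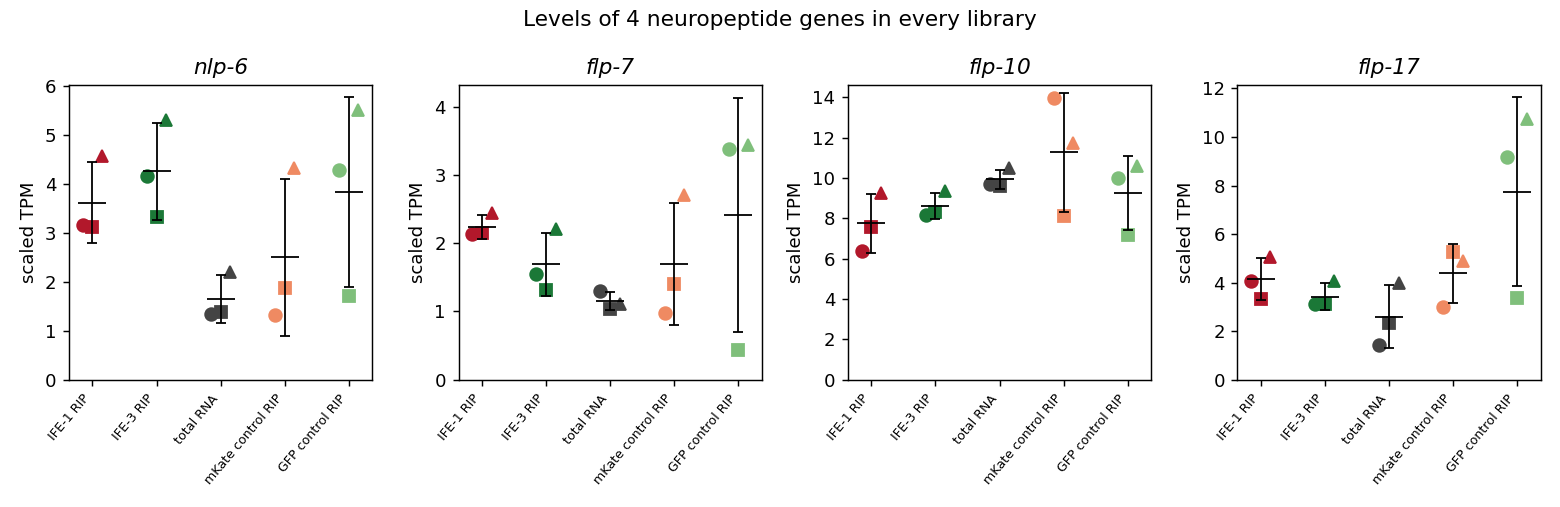
Scaled TPM of nlp-6, flp-7, flp-10 and flp-17 in every library of the 5 groups, with circles, squares and triangles for replicates 1, 2 and 3 and lines with bars for the mean ± SD. All IFE-1 pull-down and IFE-3 pull-down points of nlp-6 lie above those of total RNA, while control points reach the same levels.

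The controls were also set against total RNA of KX155, from which they differ in strain and in batch, so that these and the pull-down cannot be told apart. The mKate control lay below total RNA in 24 of 36 tested members, with a median log2 fold change of -0.29 against -0.01 for all genes. No member was called by limma, while 14.2% of all genes were called, and an unadjusted p under 0.05 was found for 2 members, both lower, against 18.4% of all genes. These were nlp-18, at 9.57, 10.8 and 14.3 scaled TPM (-0.59 ± 0.20 SE, adjusted p by limma = 0.0891), and flp-21, at 2.27, 3.15 and 4.63 against 5.11, 5.23 and 5.76 (-0.57 ± 0.20 SE, adjusted p by limma = 0.103). Both genes had groups that did not overlap, as did 21.4% of all genes in this direction. Without mKate control replicate 3, 7 members were called lower, flp-4, flp-11, flp-12, flp-15, flp-21, nlp-8 and nlp-18, when 16.1% of all genes were called lower. Among these flp-11 and nlp-8 encode peptides of the sleep-promoting neurons RIS and ALA. With replicate 3 kept, both had overlapping groups and were not called (adjusted p by limma = 0.336 and 0.153). With TPM as deposited the median of the members was 0.13 and that of all genes 0.42, so the members lay below all genes by about as much as when scaled (-0.29 and -0.28 for the difference of the medians). On the deposited scale flp-6 and flp-17 were called higher, as were 34.1% of all genes.

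GFP control lay above total RNA in 23 of 37 tested members, with a median of 0.08 against -0.02 for all genes. No member was called by limma, while 0.835% of all genes were called, and 2 members had an unadjusted p under 0.05, against 15.9% of all genes. The flp-17 mRNA was higher in the control (1.21 ± 0.43 SE, adjusted p by limma = 0.243). The nlp-4 mRNA was lower, at 0.361 and 0.551 in replicates 1 and 2 and listed at 0 in replicate 3 (-1.04 ± 0.25 SE, adjusted p by limma = 0.126). Its groups did not overlap, as in 13.6% of all genes in this direction, but it passed the filter on low values through total RNA alone and so had to differ. Without GFP control replicate 2 the median was 0.65 and 4 members were called higher, flp-6, flp-7, flp-17 and nlp-6, when 1.06% of all genes were called higher. Without replicate 3 the median was -0.27. With TPM as deposited it was 0.64, when that of all genes was 0.55 and 16.4% of all genes were called higher, flp-17 among them.

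**Figure D5:**
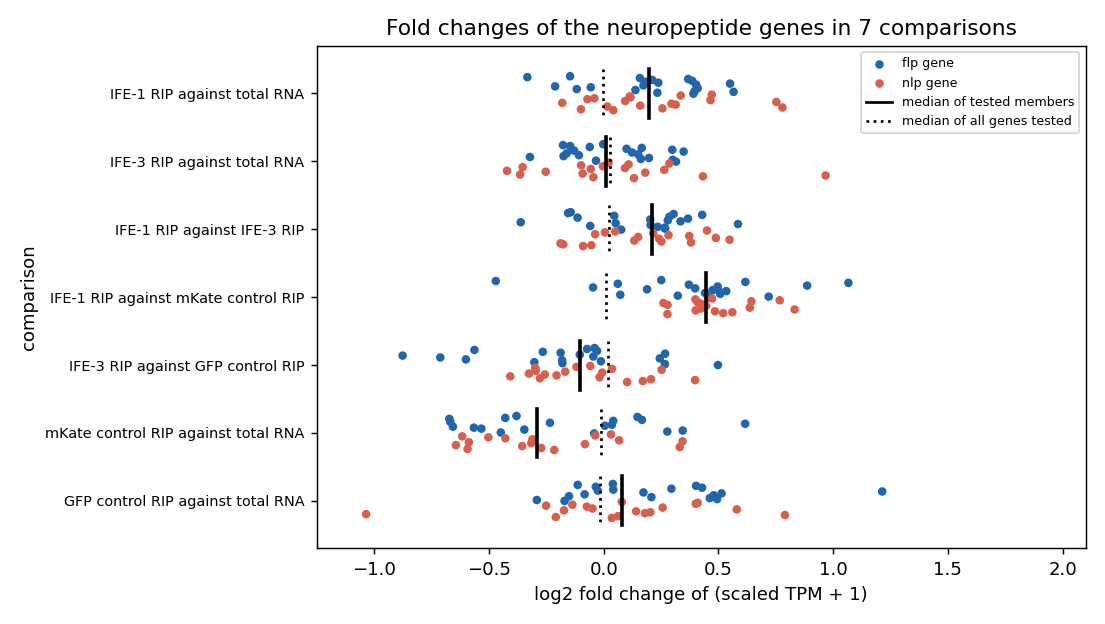
Log2 fold changes of (scaled TPM + 1) of all tested neuropeptide genes in the 7 comparisons, with flp genes in blue, nlp genes in red, solid lines for the median of the members and dotted lines for that of all genes tested. The medians of the members range from -0.29 to 0.44, and those of all genes lie between -0.02 and 0.03. Comparisons share libraries and are not independent.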

How the data were processed

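The authors deposited one table of TPM values per gene for 15 libraries. Among tools, kallisto 0.48.0 and DESeq2 1.34.0 are listed without role or order, per the submitters' processing notes, as is the build WBcel235. Sources used here do not state the annotation or read filters. Libraries were rRNA-depleted and not strand-specific, per the labels' protocols. TPM keeps no depth, so no count test was run.

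Libraries were divided by the median ratio to each gene's geometric mean (all 15 libraries for levels, those of a fit for tests). A gene entered a fit if 3 or more of its libraries reached 1 TPM. The two-sided test was that of limma 3.58.1 (lmFit, eBayes with trend, R 4.3.3) on log2(scaled TPM + 1), with Benjamini-Hochberg adjustment over all genes and calls at an adjusted p under 0.05. The KX155 groups shared a fit of 9 libraries; other comparisons used 6. The procedure was tested on simulated data for the IFE-1 pull-down against total RNA and against mKate control only. Of log2 changes of 1, 81% and 60% were recovered, with 16 and 10 false calls. Changes were put only into genes of higher level, so recovery at the level of flp-7 or nlp-6 was not tested. P-values measure the spread between the libraries of a group.

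Named members were those called, the 8 highest in total RNA, the 3 largest differences per direction within KX155 and any at 0 throughout; others were chosen after their values were seen. Members and lists were chosen with earlier results of these data known. Lists of processing, receptor and marker genes could not be applied, since their symbols are not paired with the IDs.

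Same-numbered libraries deviated together: correlations of deviations from group means were 0.158, 0.120 and 0.276 between IFE-1 and IFE-3 pull-downs, 0.130, 0.115 and 0.270 between IFE-1 and mKate control, and 0.143, 0.139 and 0.217 between IFE-3 and GFP control. The numbers were taken to pair these libraries, from the data and not the labels. The main tests of these comparisons were nevertheless unpaired, and the pairing entered only in the alternative fits with a replicate block. For the IFE and control pull-downs against total RNA the correlations were -0.00781 to 0.112, not all over 0.1 in any comparison, and no pairing was taken. For the IFE-3 pull-down against total RNA they were 0.0487, 0.0947 and 0.0710, while the highest between different numbers was 0.00706. The tests against total RNA thus leave any shift shared by same-numbered libraries in the spread.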

Additional observations from a re-analysis of the deposited data

How the results depend on the processing

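The count of members called in the IFE-1 pull-down against total RNA (2) was 1 with a pseudocount of 5, 0 with no filter, 0 with a 5 TPM filter (13 members left), 0 when the 15 libraries were fitted together, 4 with TPM as deposited (9.36% of all genes were called higher), 3 with a replicate block (6.76%) and 0 to 2 with a library left out. For the IFE-3 pull-down against total RNA (1) it was 0 with the 5 TPM filter and with the 15 libraries together, 2 with a replicate block (nlp-6 and nlp-7, when 9.31% of all genes were called higher), a fit for which no pairing was taken, and 0 to 1 with a library left out, while the median of the members was 0.28 with TPM as deposited. Between the pull-downs (0) it was 1 with a replicate block and 0 with any library left out. For the IFE-1 pull-down against mKate control (0) it was 5 with a replicate block and 0 to 6 with a library left out, and for the IFE-3 pull-down against GFP control (0) it was 0 with a replicate block and 0 to 1 with a library left out. For mKate control against total RNA (0) it was 2 with TPM as deposited, when the median was 0.13, and 0 to 7 with a library left out. For GFP control against total RNA (0) it was 1 with TPM as deposited, when the median was 0.64, 1 with the 15 libraries together (nlp-4, lower, as were 4.43% of all genes) and 0 to 4 with a library left out. The median of the members with a library left out lay from 0.06 to 0.33 for the IFE-1 pull-down and -0.08 to 0.13 for the IFE-3 pull-down against total RNA, 0.09 to 0.30 between the pull-downs, 0.30 to 0.70 for the IFE-1 pull-down against its control, -0.62 to 0.21 for the IFE-3 pull-down against its control, -0.52 to -0.08 for mKate control and -0.27 to 0.65 for GFP control against total RNA. The mean summed level in total RNA was 141 TPM as deposited and 180 when scaled. The cause of these shifts was not tested, except that a stricter filter left fewer genes. The 5 TPM filter removed nlp-6 and flp-7, so neither could be called with it. Most members lie at a few TPM, the depth is unknown, and a difference that missed the threshold is not shown to be absent.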

Other observations

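Some members overlap the span of another gene, and reads of non-stranded libraries cannot be assigned to a strand there. By RefSeq spans on WBcel235, 11 of the 45 genes overlap another protein-coding gene. The genes nlp-22 (chromosome X, 2341359 to 2342089), nlp-23 (2342391 to 2342959) and nlp-2 (2343947 to 2344766) all overlap T01B6.1. Their levels were low in every group. The nlp-2 mRNA stood at 0.743, 1.01 and 1.27 scaled TPM in the IFE-1 pull-down, 0.708, 0.654 and 0.976 in the IFE-3 pull-down and 0.629, 0.694 and 0.526 in total RNA. The nlp-23 mRNA stood at 0.218, 0.313 and 0.479 in the IFE-1 pull-down and at 0.181, 0.540 and 0.403 in the IFE-3 pull-down, while total RNA listed it at 0, 0.143 and 0. All libraries of both pull-downs lay above total RNA for nlp-23, which was not tested because no library reached 1 TPM. Among tested genes, 13.1% in the IFE-1 and 16.2% in the IFE-3 pull-down were higher than total RNA without overlap. The nlp-23 mRNA was listed at 0 in 5 libraries and reached at most 0.164 in mKate control and 0.132 in GFP control. So near 0 this separation cannot be weighed.

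Another such case is the pair flp-3 (chromosome X, 10091946 to 10092964) and flp-2 (10094430 to 10095245), which both overlap W07E11.1. They went in opposite directions between the pull-downs, with log2 fold changes of 0.58 for flp-3 and -0.36 for flp-2, neither of which passed the test.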
